A study of Mus musculus with 12 samples.

Results

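The 8 genes described here (Olig1, Olig2, Sox10, Nkx2-2, Pdgfra, Cspg4, Sox8 and Gpr17) mark or drive the step from a neural stem cell (NSC) towards the oligodendrocyte lineage. They were taken by name from a list of genes known for that step, and they are 8 of the 37991 genes in the count table. RNA was sequenced from GFP+ NSCs sorted from the subventricular zone (SVZ) of C57BL/6 mice, to ask how NSCs with and without the transcription factor GLI1 differ in health and after demyelination. There were 4 groups of 3 libraries: Gli1Null NSCs on cuprizone, Gli1Null NSCs on the control diet, Gli1Het NSCs on cuprizone and Gli1Het NSCs on the control diet.

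Gli1Null mice carried Gli1CreERT2/CreERT2 and Gli1Het mice carried Gli1CreERT2/+, so that each copy of the CreERT2 knock-in took the place of a working Gli1 allele. All mice carried the RCE reporter, which gives permanent GFP once Cre has acted, and all of them, controls included, received 4 injections of 5 mg tamoxifen at 10 weeks of age. The diet that followed lasted 3 weeks and was regular chow or chow that held 0.2% cuprizone, which binds copper, kills oligodendrocytes and strips the corpus callosum of myelin. Cre was driven by the Gli1 locus itself, so GFP marks cells in which Gli1 was active when tamoxifen was given, together with all of their descendants. The loss of Gli1 in the Gli1Null mice was global, and each library was made from the SVZ of 1 male and 1 female mouse, pooled. The replicates are therefore pools. The edgeR p-values below set a difference between groups against the spread among such pools, estimated over all 4 groups unless stated otherwise.

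OLIG1 and OLIG2 are basic helix-loop-helix transcription factors, and OLIG2 is needed to specify oligodendrocyte progenitor cells (OPCs) in the embryo. OLIG2 induces Sox10, whose product switches on myelin genes, while NKX2-2, a homeodomain factor, acts in OPC differentiation. Pdgfra encodes the receptor through which PDGF drives OPC division, Cspg4 encodes the proteoglycan NG2 of the OPC surface, and Gpr17 encodes a receptor of the short stage in which OPCs commit to differentiate. In the adult SVZ most NSC progeny become olfactory neurons, and a minority of NSCs gives rise to oligodendrocytes of the corpus callosum.

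The 8 genes are spread over 7 chromosomes of mm10 (GENCODE M21 annotation). Olig2 spans 91225457 to 91228677 and Olig1 spans 91269772 to 91271933, both on the plus strand of chromosome 16, with 41094 bases between them. Pdgfra lies on the plus strand of chromosome 5 from 75152292 to 75198215, and Cspg4 on the plus strand of chromosome 9 from 56865033 to 56899870. Sox10 lies on the minus strand of chromosome 15 from 79154908 to 79165240, and Sox8, its close relative in the SoxE family, on the minus strand of chromosome 17 from 25565892 to 25570686. Nkx2-2 spans 147177546 to 147194243 on the minus strand of chromosome 2. All 8 are protein-coding genes.

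The RefSeq promoter table (GRCm38.p6) held 5 of the 8 genes. The following 3 stretches are shown because Olig2 and Cspg4 were called higher on cuprizone in at least 1 genotype (values below), while the fold change of Pdgfra had the opposite sign. Each runs from position -250 to position -94 before the RefSeq start and overlaps no annotated exon. Capitals mark matches to the CCAAT box (CCAAT) or to the E-box (CANNTG), the kind of site that helix-loop-helix factors such as OLIG2 bind, on either strand.
Olig2, chr16:91225300-91225456 (+): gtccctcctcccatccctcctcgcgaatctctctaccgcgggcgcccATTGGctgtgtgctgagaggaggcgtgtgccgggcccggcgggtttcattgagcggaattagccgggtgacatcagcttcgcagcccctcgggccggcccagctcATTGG
Cspg4, chr9:56864854-56865010 (+): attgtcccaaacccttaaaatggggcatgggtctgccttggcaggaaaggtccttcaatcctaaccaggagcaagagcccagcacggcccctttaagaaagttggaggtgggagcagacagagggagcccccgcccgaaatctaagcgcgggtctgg
Pdgfra, chr5:75152001-75152157 (+): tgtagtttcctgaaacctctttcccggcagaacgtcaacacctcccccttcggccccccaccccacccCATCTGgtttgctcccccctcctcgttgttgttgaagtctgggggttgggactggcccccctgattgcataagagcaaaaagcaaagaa

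The Olig2 stretch held 2 CCAAT boxes, at -203 and -98, and no E-box. The Pdgfra stretch held 1 E-box, at -182, and no CCAAT box, and the Cspg4 stretch held neither. Of 32851 promoters read over the same 157 bases, 21.0% held a CCAAT box and 50.8% held an E-box. None of the 3 stretches held the GLI motif GACCACCCA (0.155% of all promoters) or the SOX motif ACAAAG (10.8%), on either strand, and no matches of different motifs overlapped. The guanine and cytosine content was 66.9% for Olig2, 57.3% for Cspg4 and 56.7% for Pdgfra. These matches describe letters in the windows and are not measured binding.

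Depth differed between genotypes. Counts in genes ranged from 27703507 to 32468063 in the Gli1Null cuprizone libraries and from 27307762 to 30823443 in the Gli1Null control libraries. They ranged from 14059223 to 29879800 in the Gli1Het cuprizone libraries and from 13752801 to 27729459 in the Gli1Het control libraries. Gli1, the targeted gene, stayed at or below 0.739 counts-per-million (CPM) in the 6 Gli1Null libraries and reached between 8.65 and 18.3 CPM in the Gli1Het control libraries. The Gli1Het cuprizone NSCs had 21.5 CPM in replicate 1, 0.837 CPM in replicate 2 and 3.84 CPM in replicate 3. The library labelled Gli1Het cuprizone replicate 2 (95% Poisson interval 0.541 to 1.24 CPM, counting error only) thus lay near the Gli1Null level, and it also had the lowest of the 12 quality weights that limma assigned (0.115). For the comparisons between the diets, some of the calls and fold changes that moved when it was left out are given beside the result. A fold change without such a value may have moved as well. The summed level of 11 markers that NSCs share with astrocytes, among them Sox2, Gfap and Slc1a3, was 4830 to 12505 CPM over the 12 libraries. That of 8 markers of transit-amplifying cells, the dividing progeny of NSCs, was 1038 to 7701 CPM and exceeded the first sum in 4 of the 6 control libraries.

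The level of the 8 genes differed widely. Levels are compared between genes as RPKM (the CPM divided by the exon length in kilobases). In Gli1Null NSCs on cuprizone Olig1 came first with 47.8 ± 4.07 RPKM, followed by Sox8 with 42.8 ± 5.28, Olig2 with 32.7 ± 2.44 and Nkx2-2 with 7.72 ± 1.69 (SD, n = 3 here and below). In Gli1Null NSCs on the control diet Sox8 came first with 34.8 ± 4.92 RPKM, followed by Olig1 with 17.7 ± 2.76, Olig2 with 15.7 ± 2.71 and Nkx2-2 with 4.11 ± 1.495. Olig1 and Sox8 on cuprizone, and Olig1 and Olig2 on the control diet, did not differ beyond their spread. The other 4 genes, which are Sox10 and the surface proteins, stayed below 1 RPKM on average in every group.

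The Gli1Het groups had the same 4 genes on top. On cuprizone Olig1 had 99.8 ± 41.3 RPKM, Olig2 had 47.1 ± 16.2, Sox8 had 38.1 ± 15.8 and Nkx2-2 had 6.94 ± 1.74. On the control diet Sox8 had 35.6 ± 7.80 RPKM, Olig2 had 17.4 ± 1.93, Olig1 had 16.9 ± 5.70 and Nkx2-2 had 4.71 ± 1.28. On cuprizone neither Olig1 and Olig2 nor Olig2 and Sox8 differed beyond their spread, nor did Olig1 and Olig2 on the control diet.

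The 4 scarce genes changed places with the diet. In the Gli1Null cuprizone NSCs the order was Sox10 (0.951 ± 0.350 RPKM), Cspg4 (0.518 ± 0.0825), Gpr17 (0.288 ± 0.108) and Pdgfra (0.124 ± 0.0447), in which Sox10 and Cspg4 were the only neighbours to meet within 1 SD. In the Gli1Null control NSCs it was Sox10 (0.492 ± 0.292 RPKM), Pdgfra (0.474 ± 0.178), Cspg4 (0.276 ± 0.0111) and Gpr17 (0.0424 ± 0.0514), in which Sox10 and Pdgfra were the only neighbours to meet. Pdgfra was thus last of the 8 genes on cuprizone and second of the scarce ones on the control diet. In the Gli1Het cuprizone NSCs the order was Cspg4 (0.745 ± 0.317 RPKM), Sox10 (0.539 ± 0.287), Gpr17 (0.233 ± 0.219) and Pdgfra (0.203 ± 0.197), with every neighbour within 1 SD of the next. In the Gli1Het control NSCs it was Pdgfra (0.605 ± 0.251 RPKM), Cspg4 (0.267 ± 0.0993), Sox10 (0.190 ± 0.0926) and Gpr17 (0.0478 ± 0.0437), in which Gpr17 alone stood apart from its neighbour. Pdgfra was first of the scarce genes there and last on cuprizone.

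**Figure D1:**
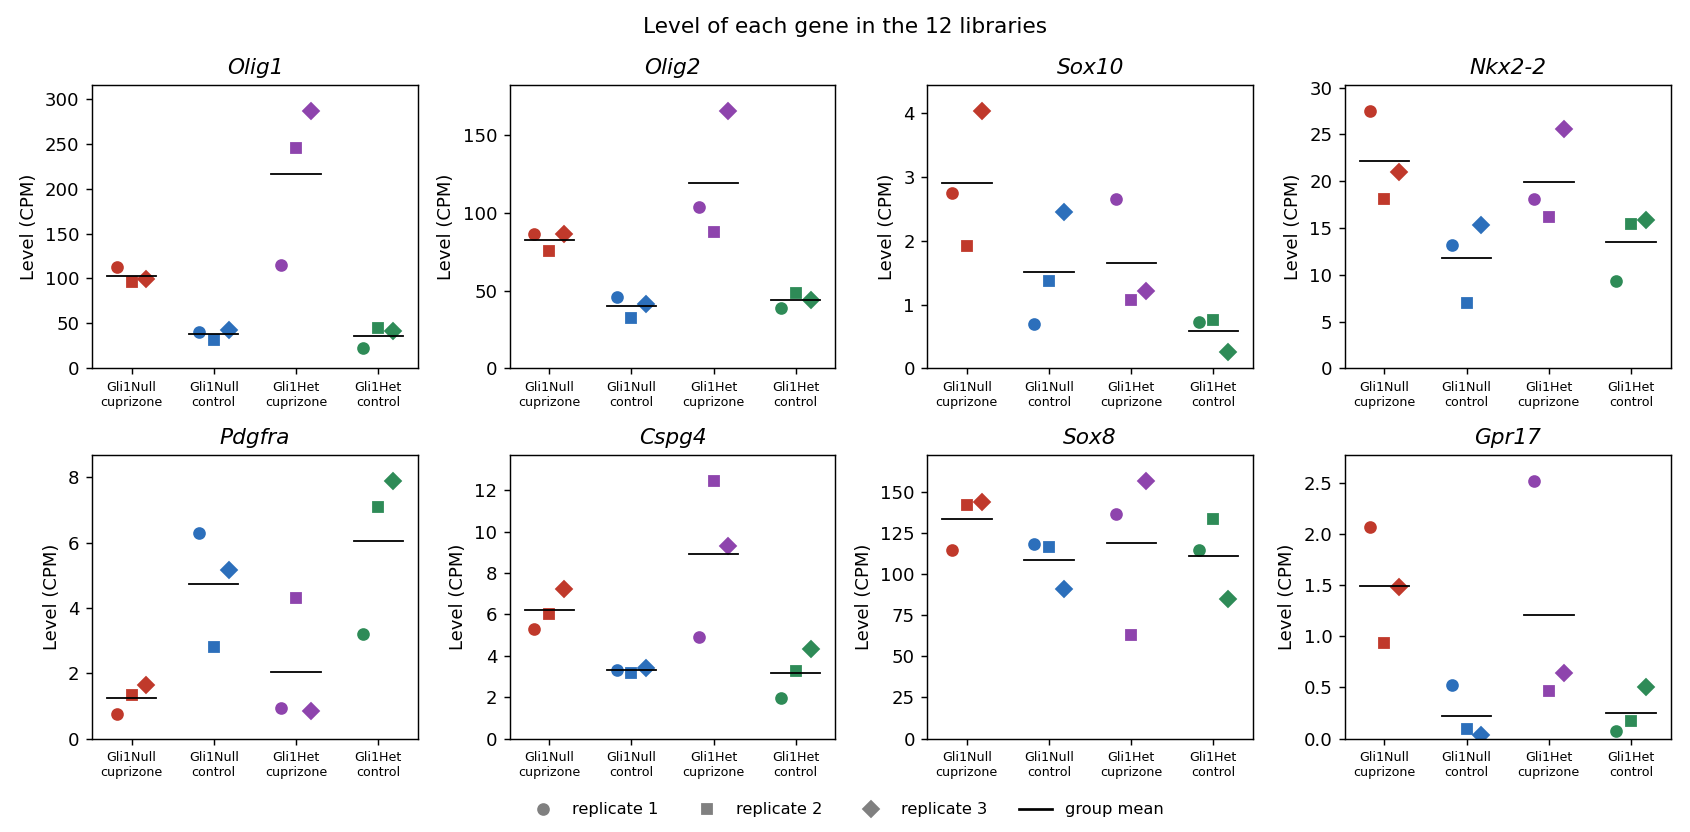
Level of each of the 8 genes (vertical axes, CPM from 0) in the 12 libraries, by group (horizontal axes), with a marker for each replicate and a bar for the group mean. Olig1 and Olig2 do not overlap between cuprizone and control in either genotype, Pdgfra is lower on cuprizone in all libraries but Gli1Het cuprizone replicate 2 (4.32 CPM), and Sox8 overlaps in both.

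Olig1 and Olig2 rose with cuprizone in Gli1Null NSCs. Of the 8 genes, which all passed the filter on low counts, 2 rose with cuprizone, none fell and 6 did not pass the test (edgeR quasi-likelihood, Benjamini-Hochberg adjusted over 17623 genes at 0.05). In that comparison 3.62% of all genes were called, 3.37% as higher. The median log2 fold change was 0.96 over the 8 genes and -0.02 over all genes. In bulk libraries a change in the number of cells that express a gene and a change of RNA per cell cannot be told apart.

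Olig1 was at 113, 96.6 and 99.9 CPM in the Gli1Null cuprizone NSCs, against 40.6, 31.5 and 42.8 CPM in the Gli1Null control NSCs. All cuprizone libraries were above all control libraries, by 2.75-fold (log2 fold change 1.46, SE 0.316, edgeR adjusted p = 0.0294). Olig2 was at 86.3, 75.6 and 86.2 CPM in the Gli1Null cuprizone NSCs, against 45.7, 32.2 and 41.5 CPM in the Gli1Null control NSCs. It was 2.12-fold higher without overlap (log2 fold change 1.09, SE 0.217, edgeR adjusted p = 0.0217). Both calls rest on all of the libraries compared: without any 1 of the 6, the adjusted p of Olig1 lay between 0.0678 and 0.125. That of Olig2 lay between 0.0555 and 0.0986, except that it was 0.0482 without Gli1Null cuprizone replicate 2, while the log2 fold changes stayed between 1.34 and 1.56 for Olig1 and between 0.96 and 1.20 for Olig2.

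The other transcription factors did not pass the test in Gli1Null NSCs. Nkx2-2 was at 27.5, 18.05 and 21.0 CPM on cuprizone, against 13.2, 7.01 and 15.3 CPM on the control diet. These groups did not overlap, but the log2 fold change of 0.94 (SE 0.312) had an adjusted p of 0.133 by edgeR. Sox10 was at 2.75, 1.91 and 4.03 CPM on cuprizone, against 0.69, 1.36 and 2.45 CPM on the control diet, with overlap (log2 fold change 0.98, SE 0.538, edgeR adjusted p = 0.361). Sox8, whose product acts beside SOX10 in myelination, was at 115, 142 and 144 CPM on cuprizone, against 118, 116 and 90.7 CPM on the control diet (log2 fold change 0.33, SE 0.282, edgeR adjusted p = 0.570).

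The surface proteins had fold changes of different sign, none past the test. Pdgfra was at 0.75, 1.34 and 1.63 CPM in the Gli1Null cuprizone NSCs, against 6.29, 2.79 and 5.16 CPM in the Gli1Null control NSCs. It was the member of the 8 whose cuprizone libraries all lay below its control libraries, with a log2 fold change of -1.91 (SE 0.604, edgeR adjusted p = 0.116). Cspg4 was at 5.29, 6.03 and 7.24 CPM on cuprizone, against 3.32, 3.15 and 3.41 CPM on the control diet (log2 fold change 0.94, SE 0.337, edgeR adjusted p = 0.162). Gpr17 was at 2.06, 0.94 and 1.48 CPM on cuprizone, against 0.53, 0.10 and 0.04 CPM on the control diet, which stands for 140 counts on cuprizone and 20 on the control diet (log2 fold change 2.75, SE 0.893, edgeR adjusted p = 0.126). Without Gli1Null control replicate 1, which had most of the control counts, its log2 fold change was 4.40 and did not pass (edgeR adjusted p = 0.0885). Of the 8 genes, 6 did not overlap between the diets, 5 higher and 1 lower, where 41.7% of all genes did not overlap, 19.8% as higher and 21.9% as lower.

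The calls of these genes depended on the model. Fitted on the 6 Gli1Null libraries alone, edgeR called 6 of the 8 (25.0% of all genes), adding Nkx2-2, Cspg4 and Gpr17 as higher and Pdgfra as lower (adjusted p = 0.00493). DESeq2 called 4, adding Gpr17 as higher and Pdgfra as lower (adjusted p = 0.0182). Without the library labelled Gli1Het cuprizone replicate 2, which enters through the shared estimate of the spread, edgeR called 3, with Pdgfra as lower (adjusted p = 0.0130). That fit called 10.5% of all genes, against 3.62% in the main fit.

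Olig1, Olig2 and Cspg4 rose with cuprizone in Gli1Het NSCs. Thus 3 of the 8 genes rose, none fell and 5 did not pass the test, in a comparison in which 34.0% of all genes were called and 18.8% were called as higher. The median log2 fold change was 1.44 over the 8 genes and 0.02 over all genes. The 3 calls among 8 members thus stood near the share called over all genes in either direction, and above the share called as higher.

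Olig1 was at 115, 245 and 287 CPM in the Gli1Het cuprizone NSCs, against 22.5, 45.3 and 41.9 CPM in the Gli1Het control NSCs. It had the largest increase among the called members, 5.85-fold (log2 fold change 2.55, SE 0.328, edgeR adjusted p = 0.000705), and replicate 1 was far below the other cuprizone libraries. Olig2 was at 104, 88.0 and 166 CPM on cuprizone, against 38.9, 48.7 and 44.2 CPM on the control diet, a 2.69-fold increase (log2 fold change 1.43, SE 0.220, edgeR adjusted p = 0.00156). Olig1 and Olig2 passed in all 20 alternative settings, the fit without the library labelled replicate 2 included.

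Cspg4 was at 4.91, 12.4 and 9.32 CPM in the Gli1Het cuprizone NSCs, against 1.96, 3.27 and 4.33 CPM in the Gli1Het control NSCs. It was 2.75-fold higher without overlap (log2 fold change 1.46, SE 0.344, edgeR adjusted p = 0.00989), and its call was lost when edgeR was fitted on the Gli1Het libraries alone (adjusted p = 0.0804). Over the fits without each library its log2 fold change ranged from 1.13 to 1.71, always past the test. Besides OPCs, pericytes carry NG2. The summed level of 12 markers of mural cells (pericytes and smooth muscle), which leave out Cspg4, ranged from 180 to 308 CPM in the Gli1Het cuprizone libraries and from 77.4 to 141 CPM in the Gli1Het control libraries. Of the 12, 4 rose (Pdgfrb, Acta2, Tagln and Anpep) and none fell, Acta2 no longer passed without the library labelled replicate 2 (edgeR adjusted p = 0.111), and Anpep and Higd1b were each at 0 in 1 of the 12 libraries. Over all genes 34.0% were called in that comparison, 18.8% as higher. In the Gli1Null NSCs the sum ranged from 190 to 214 CPM on cuprizone and from 104 to 131 CPM on the control diet. There 1 of 12 rose (Pdgfrb), where 3.37% of all genes were called as higher. The part of mural cells in the level of Cspg4 was not tested.

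Pdgfra was at 0.93, 4.32 and 0.85 CPM in the Gli1Het cuprizone NSCs, against 3.20, 7.09 and 7.90 CPM in the Gli1Het control NSCs. The overlap came from the library labelled replicate 2, and the log2 fold change of -1.53 (SE 0.596) did not pass (edgeR adjusted p = 0.0643). Without that library the log2 fold change was -2.78 and passed (edgeR adjusted p = 0.00325), which made 4 members called, with 27.0% of all genes called. Fibroblasts also use Pdgfra: the summed level of 7 fibroblast markers ranged from 50.9 to 89.1 CPM in the Gli1Het cuprizone libraries and from 31.6 to 61.8 CPM in the Gli1Het control libraries, none of the 7 was called (1 as lower without the library labelled replicate 2), and their part in the level of Pdgfra was not tested. In the Gli1Null NSCs that sum ranged from 60.6 to 75.7 CPM on cuprizone and from 50.4 to 52.7 CPM on the control diet, also with none of 7 called. Col1a2 made up most of it, with means of 56.6 and 39.1 CPM on these diets. The median log2 fold change of the 7 was -0.36 in Gli1Null NSCs, where 3 were positive. In Gli1Het NSCs it was 0.79, where 6 were positive, and -0.48 without the library labelled replicate 2. Over all genes edgeR called 3.62% in Gli1Null and 34.0% in Gli1Het NSCs. By unadjusted edgeR p under 0.05, 1 of the 7 fibroblast markers passed in each genotype, DESeq2 called none and limma with library weights called 2 in each.

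The remaining members did not pass in Gli1Het NSCs. Sox10 was at 2.65, 1.07 and 1.21 CPM on cuprizone, against 0.73, 0.76 and 0.25 CPM on the control diet, without overlap (log2 fold change 1.51, SE 0.600, edgeR adjusted p = 0.0695). Nkx2-2 was at 18.1, 16.2 and 25.6 CPM on cuprizone, against 9.31, 15.4 and 15.9 CPM on the control diet (log2 fold change 0.54, SE 0.313, edgeR adjusted p = 0.194). For both genes each cuprizone library lay above the highest control library. Gpr17 was at 2.52, 0.47 and 0.64 CPM on cuprizone, against 0.07, 0.17 and 0.50 CPM on the control diet (log2 fold change 2.11, SE 0.917, edgeR adjusted p = 0.0923). Its log2 fold change was 0.96 without cuprizone replicate 1 and 3.12 without control replicate 3, neither past the test. Sox8 was at 137, 63.0 and 157 CPM on cuprizone, against 115, 133 and 85.0 CPM on the control diet (log2 fold change 0.09, SE 0.282, edgeR adjusted p = 0.833). For Gpr17 and Sox8 the library labelled replicate 2 was the lowest on cuprizone and lay inside the control range or below it. In this comparison 5 of the 8 did not overlap, all of them higher, where 42.0% of all genes did not overlap and 21.7% did so as higher.

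Reads of antisense genes may bear on some of these values, since the library kit does not mark strand. Whether counting used strand is not known, and how such reads were assigned was not tested. Nkx2-2 overlaps the antisense genes Nkx2-2os (1259 counts over 12 libraries) and 6430503K07Rik (470 counts), and Sox8 overlaps the antisense gene 2810468N07Rik (5260 counts). Gpr17 overlaps Lims2 on the other strand (140 counts). Reads of each pair cannot be told apart where they overlap.

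**Figure D2:**
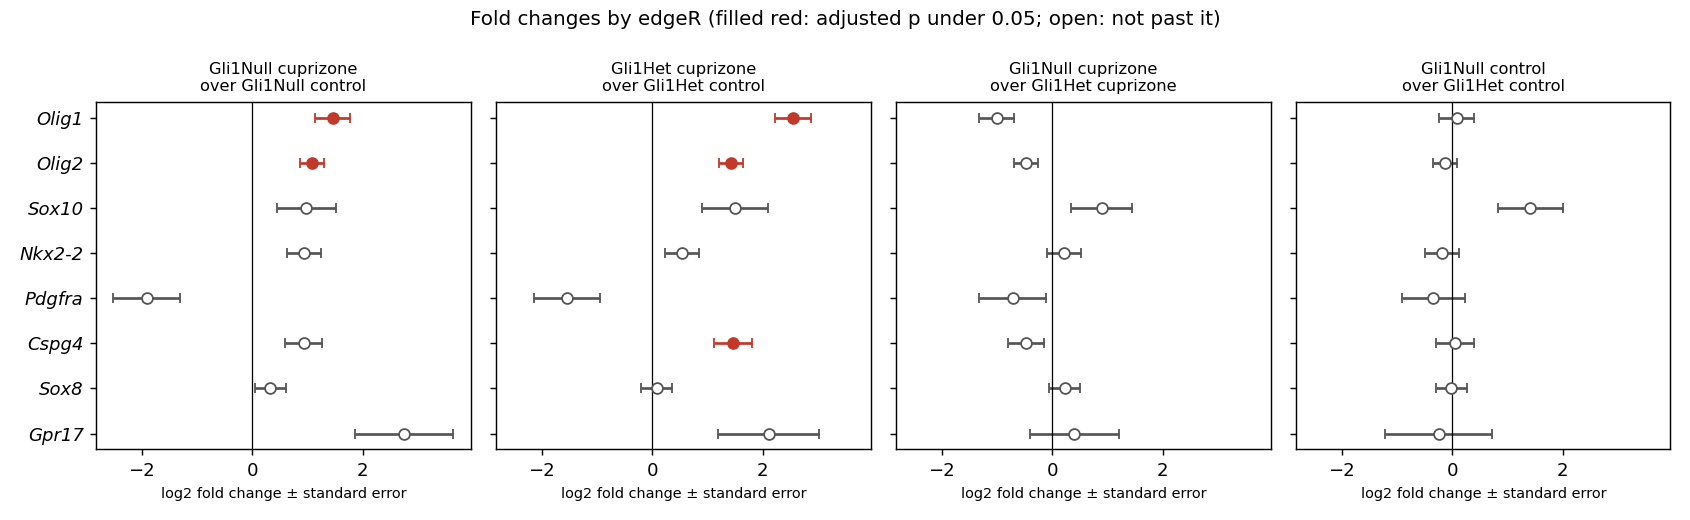
Log2 fold change ± standard error (horizontal axes) of the 8 genes (vertical axis) in 4 comparisons, by edgeR; filled red points passed an adjusted p of 0.05 and open points did not. Olig1 and Olig2 passed in both diet comparisons, Cspg4 passed in Gli1Het NSCs alone, and none passed between the genotypes.

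Between the genotypes on cuprizone no member passed the test by edgeR, where 7 genes of the table did (0.0397%). Olig1 was at 113, 96.6 and 99.9 CPM in Gli1Null NSCs, against 115, 245 and 287 CPM in Gli1Het NSCs. All Gli1Null libraries were below all Gli1Het libraries, though replicate 1 of the Gli1Het NSCs was close to them (log2 fold change -1.004, SE 0.311, edgeR adjusted p = 0.102). Olig2 also lay lower in all Gli1Null libraries, which reached at most 86.3 CPM, against at least 88.0 CPM in Gli1Het NSCs (log2 fold change -0.47, SE 0.215, edgeR adjusted p = 0.202). These were the 2 of 8 members without overlap, against 27.6% of all genes, and Olig1 was the 1 member with an unadjusted p under 0.05, as were 4388 of all genes.

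The contrast between genotypes was sensitive to the Gli1Het cuprizone libraries. Without Gli1Het cuprizone replicate 1, Olig1 passed as lower in Gli1Null NSCs (log2 fold change -1.27, edgeR adjusted p = 0.00342) with 28.1% of all genes called. The Gli1Het cuprizone libraries left in that fit had 0.837 and 3.84 CPM of Gli1, against 21.5 CPM in replicate 1. In the Gli1Het control libraries Gli1 was at 8.65 to 18.3 CPM. Without the library labelled replicate 2 no member was called. When the fit was adjusted for whether a sample's label number was below 10, the log2 fold change of Olig1 was -0.19 (edgeR adjusted p = 0.674). All label numbers below 10 belong to Gli1Het libraries, and replicate 1 was the only Gli1Het cuprizone library with a higher number. This term is thus largely tied to genotype, and the adjusted contrast leans on that library. DESeq2 called Olig1 alone (adjusted p = 0.0269) and 9.67% of all genes, and limma with library weights, which put weights of 0.277, 0.115 and 3.63 on the 3 Gli1Het cuprizone libraries, called Olig1 and Olig2 and 37.9% of all genes. For the other 6 genes the adjusted p lay between 0.312 and 0.782, with log2 fold changes between -0.71 for Pdgfra and 0.90 for Sox10.

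On the control diet no member passed between the genotypes by edgeR, nor by DESeq2, and edgeR called 0% of all genes. Gli1, the targeted gene, was thus not called by edgeR, though it was at 0.293 to 0.389 CPM in the Gli1Null control libraries. In the Gli1Het control libraries Gli1 was at 8.65 to 18.3 CPM. As edgeR missed this difference, its lack of calls does not show that the members were alike in the genotypes. The log2 fold changes of Gli1Null over Gli1Het control NSCs were between -0.34 and 0.08 for 7 members, all with an adjusted p of 1. Sox10 had a log2 fold change of 1.42 (SE 0.590), with 0.69, 1.36 and 2.45 CPM in Gli1Null NSCs, against 0.73, 0.76 and 0.25 CPM in Gli1Het NSCs. It was the 1 member with an unadjusted p under 0.05 (edgeR, with an adjusted p of 1), as were 253 of all genes.

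Whether the response to the diet differed between the genotypes was tested as the interaction of genotype and diet. No member passed by edgeR, which called 0% of all genes, or by DESeq2, which called 0.299%. Where edgeR called no gene at all, the lack of member calls does not show that the responses were alike. With library weights limma called 2 members and 15.5% of all genes. For Olig1 the diet effect was smaller in Gli1Null than in Gli1Het NSCs by 1.09 on the log2 scale (difference -1.09, SE 0.440, edgeR adjusted p = 0.543). It was the 1 member with an unadjusted p under 0.05, as were 1591 of all genes, and it passed without Gli1Het cuprizone replicate 1 (edgeR adjusted p = 0.0285) and with limma's library weights (adjusted p = 0.0142). The Gli1Het cuprizone libraries left in the fit without replicate 1 had 0.837 and 3.84 CPM of Gli1, against 21.5 CPM in replicate 1. For Cspg4, called in Gli1Het NSCs alone, the difference of -0.52 (SE 0.477) did not pass (edgeR adjusted p = 0.665).

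The pairs of genes within a library gave a measure that scaling does not touch. Olig1 and Olig2, neighbours on chromosome 16, had a ratio of Olig1 to Olig2 per exon base of 1.53, 1.495 and 1.36 in the Gli1Null cuprizone NSCs, against 1.04, 1.14 and 1.21 in the Gli1Null control NSCs. In the Gli1Het NSCs the ratio was 1.30, 3.26 and 2.02 on cuprizone, against 0.676, 1.09 and 1.11 on the control diet. Thus Olig1 was higher relative to Olig2 in every cuprizone library than in every control library of its genotype.

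Cspg4 and Pdgfra, the surface markers of OPCs, had fold changes of opposite sign in both genotypes. The ratio of Cspg4 to Pdgfra per exon base was 5.92, 3.79 and 3.73 in the Gli1Null cuprizone NSCs, against 0.444, 0.948 and 0.554 in the Gli1Null control NSCs. It was 4.44, 2.42 and 9.17 in the Gli1Het cuprizone NSCs, against 0.516, 0.388 and 0.460 in the Gli1Het control NSCs. Pdgfra was the higher of the 2 genes in all 6 control libraries and Cspg4 in all 6 cuprizone libraries. The mean log2 ratio differed between the diets by 2.83 (SE 0.391) in Gli1Null and by 3.36 (SE 0.568) in Gli1Het NSCs, and that of Olig1 to Olig2 by 0.37 (SE 0.0829) and 1.13 (SE 0.449) in these genotypes. Each of these 4 differences had a two-sided exact permutation p of 0.1, the smallest that 3 against 3 libraries allow, and 0.2 after adjustment over the 8 ratio comparisons made, so that no ratio could pass. Without the library labelled Gli1Het cuprizone replicate 2 the differences in Gli1Het NSCs were 3.82 for Cspg4 to Pdgfra and 0.79 for Olig1 to Olig2. Between the genotypes no ratio differed beyond its spread on either diet (exact permutation p between 0.3 and 0.9, adjusted p between 0.457 and 0.9).

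**Figure D3:**
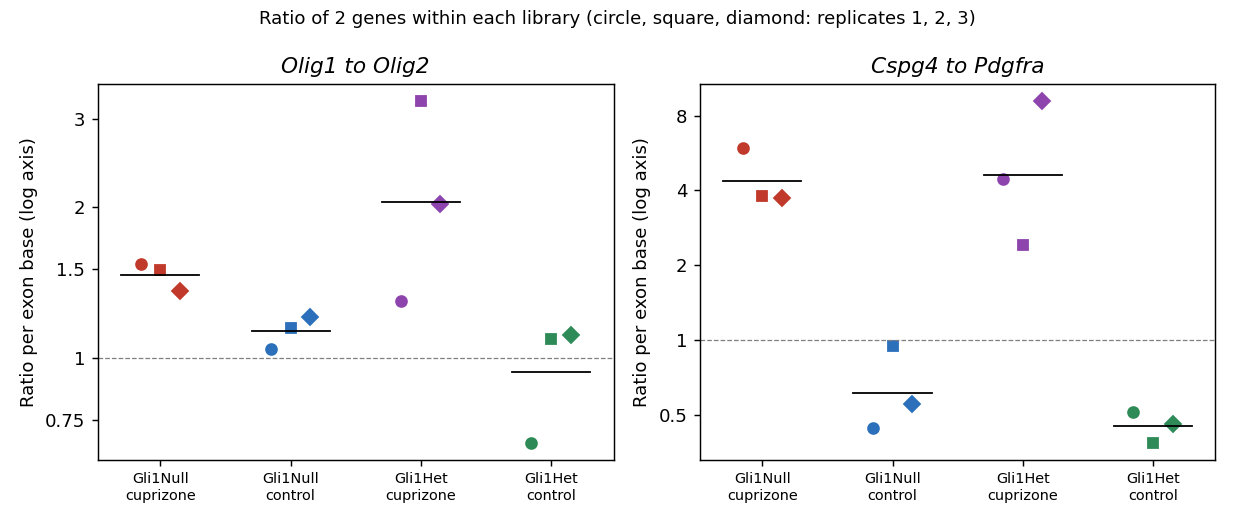
Ratio per exon base (vertical axes, log scale) of Olig1 to Olig2 and of Cspg4 to Pdgfra in each library, by group (horizontal axes), with a bar for the geometric mean and a dashed line at equal level. The ratio of Cspg4 to Pdgfra lies between 2.42 and 9.17 in the 6 cuprizone libraries and between 0.388 and 0.948 in the 6 control libraries.

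Among the 12 libraries the log2 levels of Olig1 and Cspg4 (Pearson r = 0.94) and of Olig1 and Olig2 (r = 0.94) were the most alike pairs of members. Pdgfra ran against Olig2 over all libraries (r = -0.75), but with it among the 6 control libraries (r = 0.89). Gpr17 ran against Cspg4 among the 6 cuprizone libraries (r = -0.90), where Gpr17 ran with Sox10 (r = 0.85). These values describe libraries that share a diet or a genotype and differ in depth. Of 14327 named genes with a mean of at least 1 CPM, the level of Fkbp10 was the most like Olig1 (r = 0.99), followed by Pfkfb3 and Tpp1 (both r = 0.98). For Olig2 these were Ddx25 (r = 0.98), Ehhadh and Lrpap1 (both r = 0.97), and for Cspg4 Vcl, Sdc2 and Zdhhc24 (all r = 0.98).

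For the other members the nearest genes were less alike. They were Tns2 for Sox10 (r = 0.95), Adra2a, Hrh1 and 1700071M16Rik for Nkx2-2 (all r = 0.96), and Zadh2 for Sox8 (r = 0.95), followed by Mycn (r = 0.93) and Cacna1h (r = 0.92). Sox10 was followed by Vps37c and Noa1 (both r = 0.90). Pdgfra was nearest to Cyp51 (r = 0.91), a sterol synthesis enzyme, then to Ccdc174 (r = 0.90), and Gpr17 to Jakmip1 (r = 0.94), then Cables1 and Mrpl50 (both r = 0.91). No nearest gene of one member was that of another.

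Of 17 further OPC genes tested, 1 rose, none fell and 16 did not pass in Gli1Null NSCs (median log2 fold change 0.03), and 3 rose, 1 fell and 13 did not pass in Gli1Het NSCs (median -0.06). Over all genes edgeR called 3.62% in Gli1Null and 34.0% in Gli1Het NSCs. DESeq2 called 3 of the list in Gli1Null and 5 in Gli1Het NSCs, and limma with library weights called 4 and 11. The shares of all genes that DESeq2 and limma called are given in the closing section on the processing. Without the library labelled Gli1Het cuprizone replicate 2 edgeR called 2 as higher and 1 as lower in Gli1Null NSCs, and 4 as higher and 1 as lower in Gli1Het NSCs. That fit called 10.5% of all genes in Gli1Null and 27.0% in Gli1Het NSCs. The list and the 8 genes were not tested against each other. Emid1, a matrix protein gene, rose in both, by 1.24 (SE 0.295, edgeR adjusted p = 0.0430) in Gli1Null and by 1.48 (SE 0.301, edgeR adjusted p = 0.00515) in Gli1Het NSCs on the log2 scale. In Gli1Het NSCs Sulf2, a heparan sulfate 6-O-endosulfatase gene, rose by 3.08 (SE 0.404, edgeR adjusted p = 0.000776) and Matn4, a matrilin gene, by 2.88 (SE 0.710, edgeR adjusted p = 0.0121), while Sox5 fell by 0.70 (SE 0.237, edgeR adjusted p = 0.0409). The log2 fold changes without the library labelled replicate 2 were 2.47 for Sulf2 and 1.65 for Matn4, both past the test. The most abundant of the list, the proteoglycan genes Bcan and Cspg5, had log2 fold changes of 0.51 and -0.02 in Gli1Null NSCs and of -0.18 and -0.58 in Gli1Het NSCs, none past the test.

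Few genes of later stages passed by edgeR. Of 10 genes of committed precursors, none passed in Gli1Null NSCs (2 at an unadjusted edgeR p under 0.05, none by DESeq2 and 3 by limma with library weights), and Tmem163 fell in Gli1Het NSCs, by 0.98 (SE 0.307, edgeR adjusted p = 0.0302). In Gli1Het NSCs 4 of these 10 were at an unadjusted edgeR p under 0.05, 1 passed by DESeq2 and 4 by limma with library weights. Of 18 genes of mature oligodendrocytes, none passed in Gli1Null NSCs, with a median log2 fold change of -0.48, 2 at an unadjusted edgeR p under 0.05, 1 by DESeq2 and 9 by limma with library weights. In Gli1Het NSCs 2 of the 18 fell, among them Mbp, which encodes a main myelin protein, by 3.21 (SE 0.996, edgeR adjusted p = 0.0292), Apod rose by 2.27 (SE 0.773, edgeR adjusted p = 0.0408), and 15 did not pass (median -0.92). There 7 of the 18 were at an unadjusted edgeR p under 0.05, 7 passed by DESeq2 and 10 by limma with library weights. The edgeR test called 34.0% of all genes in that comparison, and 3.62% between the diets in Gli1Null NSCs. Without the library labelled Gli1Het cuprizone replicate 2, Tmem163 (-0.77, edgeR adjusted p = 0.0874) and Apod (0.51, edgeR adjusted p = 0.466) did not pass, while Mbp did (-2.68, edgeR adjusted p = 0.0487). In that fit 1 of the 10 precursor genes rose and 4 of the 18 oligodendrocyte genes fell in Gli1Het NSCs (27.0% of all genes called), and 1 of the 18 rose in Gli1Null NSCs (10.5%). The summed level of the 18 genes ranged from 340 to 528 CPM in the Gli1Null cuprizone libraries and from 518 to 692 CPM in the Gli1Null control libraries. It ranged from 261 to 412 CPM in the Gli1Het cuprizone libraries and from 370 to 1202 CPM in the Gli1Het control libraries, where replicate 1 alone was above 419 CPM, and in both genotypes the ranges of the diets overlapped.

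Of 15 activators and partners of the lineage, Sox9, a SoxE factor of glial fate, rose in both genotypes, by 0.59 (SE 0.135, edgeR adjusted p = 0.0371) in Gli1Null and by 0.60 (SE 0.135, edgeR adjusted p = 0.00839) in Gli1Het NSCs. It was the single call of the list in Gli1Null NSCs. In Gli1Het NSCs Myrf, which encodes a myelin gene regulator, also rose, by 1.98 (SE 0.589, edgeR adjusted p = 0.0252, at a mean of 0.859 CPM over all libraries). There 10 of the 15 fell, among them Zfp488 (-1.22), Tcf4 (-0.96), Zeb2 (-1.39) and Nfib (-0.90), the last of which had the highest mean level of the list (1084 CPM). Without the library labelled Gli1Het cuprizone replicate 2 the values of these genes were -1.25, -0.71, -1.04 and -0.63, all past the test. Of all genes 3.62% were called in Gli1Null and 34.0% in Gli1Het NSCs, and in the interaction none of the 15 passed by edgeR or by DESeq2. In Gli1Het NSCs 7 of the 15 fell and 2 rose when the library labelled Gli1Het cuprizone replicate 2 was left out, with 27.0% of all genes called. The median of the list was -0.16 in Gli1Null and -0.69 in Gli1Het NSCs.

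Of 11 genes that hold the lineage back, Id4, a helix-loop-helix inhibitor that lacks a DNA-binding domain, rose in Gli1Null NSCs by 0.61 (SE 0.141, edgeR adjusted p = 0.0379) and in Gli1Het NSCs by 0.52 (SE 0.141, edgeR adjusted p = 0.0181). In Gli1Het NSCs Hes1 (1.48) and Id2 (0.86) rose as well, and Dlx1 (-1.995), Dlx2 (-1.95) and Sox5 (-0.70) fell. Without the library labelled Gli1Het cuprizone replicate 2 the values of these genes were 1.22, 0.73, -1.46, -1.45 and -0.41, all past the test. Dlx1 and Dlx2 direct SVZ progeny to neurons. Beside these, the summed level of 10 neuroblast markers was 1896 to 2067 CPM in the Gli1Null cuprizone libraries and 3019 to 3164 CPM in the Gli1Null control libraries. It was 280 to 1995 CPM in the Gli1Het cuprizone libraries and 2801 to 3646 CPM in the Gli1Het control libraries, where 8 of the 10 fell. None of the 10 passed in Gli1Null NSCs by edgeR or by DESeq2, nor at an unadjusted edgeR p under 0.05, while limma with library weights called 7. The summed level of 7 ependymal markers was 107 to 117 CPM and 59.6 to 67.1 CPM in Gli1Null NSCs on cuprizone and on the control diet, and 174 to 478 CPM and 41.4 to 88.5 CPM in Gli1Het NSCs on these diets, with 1 and 4 of the 7 called as higher in these genotypes and none as lower. The library labelled Gli1Het cuprizone replicate 2 had the 280 CPM of neuroblast and the 478 CPM of ependymal markers. The other Gli1Het cuprizone libraries had 655 and 1995 CPM of neuroblast and 174 and 203 CPM of ependymal markers, and without that library all 10 neuroblast markers fell in Gli1Het NSCs, 2 fell in Gli1Null NSCs, and 4 of the 7 ependymal markers rose in Gli1Het NSCs. The summed level of 12 microglia markers was 99.7 to 118 CPM and 67.9 to 93.9 CPM in Gli1Null NSCs on cuprizone and on the control diet, and 159 to 215 CPM and 70.4 to 92.5 CPM in Gli1Het NSCs on these diets. Of the 12, 1 rose in Gli1Null and 6 rose in Gli1Het NSCs, none fell, and Aif1 was at 0 in 4 libraries, while 4 rose in Gli1Het NSCs without the library labelled replicate 2. Beside these counts, edgeR called 3.62% of all genes in Gli1Null NSCs (3.37% as higher) and 34.0% in Gli1Het NSCs (18.8% as higher). Without the library labelled Gli1Het cuprizone replicate 2 it called 10.5% and 27.0% of all genes in these genotypes. The part of these cells in the levels of the 8 genes was not tested.

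Genes of the PDGF family, to which the ligands of the receptor encoded by Pdgfra belong, were called as higher or not at all. Pdgfrb, the sister receptor gene, rose by 0.84 (SE 0.175, edgeR adjusted p = 0.0247) in Gli1Null NSCs, as the only one of 6 genes tested, and by 0.75 (SE 0.176, edgeR adjusted p = 0.00943) in Gli1Het NSCs. There the ligand genes Pdgfa and Pdgfc rose too, Pdgfa by 2.13 (SE 0.399, edgeR adjusted p = 0.00354) and Pdgfc by 0.81 (SE 0.195, edgeR adjusted p = 0.0112). In Gli1Null NSCs Pdgfa had a log2 fold change of 0.78 and Pdgfc of 0.71, neither past the test (edgeR adjusted p of 0.316 and 0.0698). Beside these calls, edgeR called 3.37% of all genes as higher in Gli1Null and 18.8% in Gli1Het NSCs. Without the library labelled Gli1Het cuprizone replicate 2, 3 of the 6 genes rose in Gli1Null NSCs (10.5% of all genes called), and the log2 fold change of Pdgfa in Gli1Het NSCs was 1.36, still past the test. Of the 6 further relatives of the transcription factors, 3 passed the filter on low counts (Sox9, Nkx2-1 and Nkx6-2). Olig3, the third gene of the Olig family, had 2 and 8 counts over the Gli1Null cuprizone and control groups, and 3 and 16 over the Gli1Het cuprizone and control groups.

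**Figure D4:**
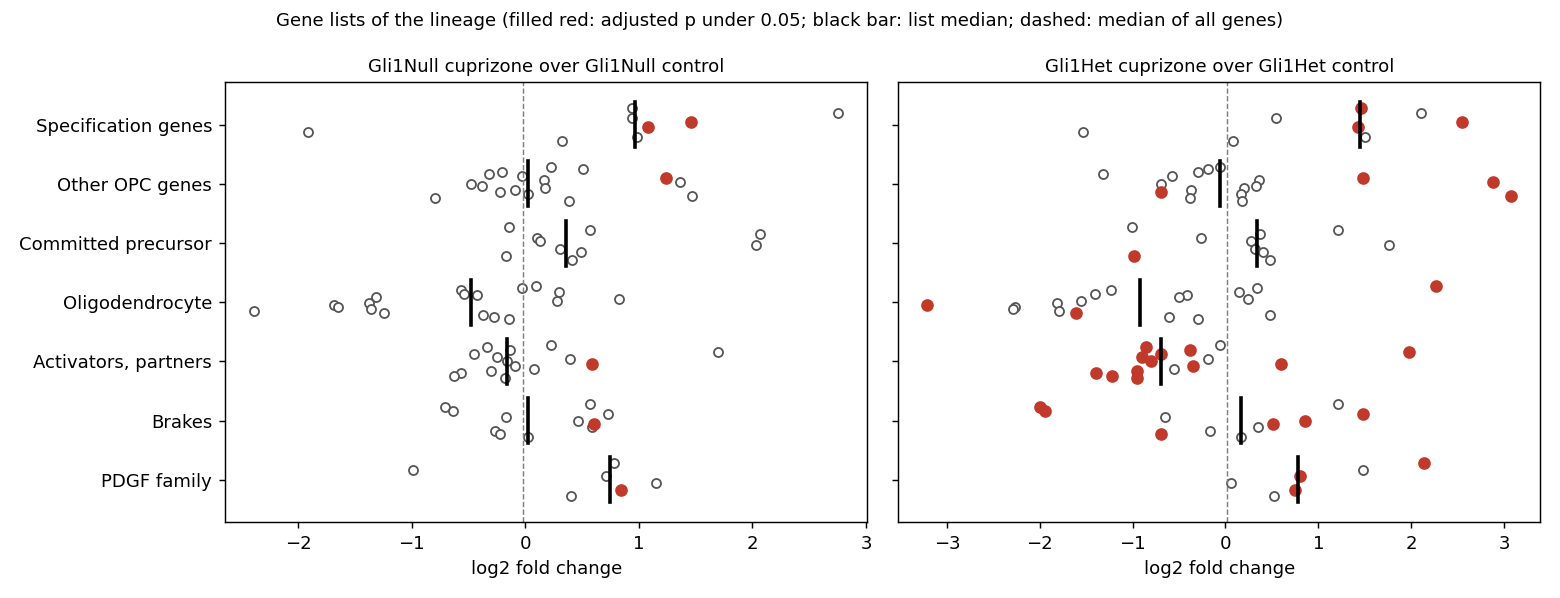
Log2 fold change of cuprizone over control (horizontal axes) of each tested gene of 7 lists (vertical axis) in Gli1Null and in Gli1Het NSCs, with filled red points for genes past an edgeR adjusted p of 0.05, a black bar for the list median and a dashed line for the median of all genes. The 8 specification genes have medians of 0.96 and 1.44, above those of the other OPC genes (0.03 and -0.06) and of the oligodendrocyte genes (-0.48 and -0.92).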

How the data were processed

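The paper's methods and the submitters' processing notes name FastQC 0.11.5 for read quality, TopHat2 2.1.1 for alignment to mm10 with an Ensembl annotation, HTSeq 0.11.1 for counting and DESeq2 1.12 for the authors' comparisons. Neither the release of the annotation nor whether counting used strand is given in these sources.

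The values used are the counts per gene that the authors deposited, in text cells that pair each count with its gene ID. The ID in the cell was used, since in 33998 lines the sheet's first column gave a different gene. A second deposited sheet gives a signal, in which the counts of each library are divided by that library's size factor. It served as a check: multiplied back, 100% of its values matched the counts within 0.01. Reads matched to no feature (54.5% to 58.4% of a library) were left out. Columns of the authors' own fold changes and p-values were not used, and all columns of per-sample values were used.

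Genes passing edgeR's filter (minimum count 10) were 17623 of 37991. After TMM scaling, 1 quasi-likelihood model of edgeR 4.0.16 in R 4.3.3 took in all 4 groups, with p-values adjusted by Benjamini-Hochberg at 0.05 in each of 5 contrasts. Standard errors were obtained by dividing each log2 fold change by the square root of its F statistic. CPM are relative to counts in genes, and log2 levels used a prior count of 2. RPKM used exon lengths of GENCODE M21, in which 32919 IDs were found. The tests were checked on simulated counts. Intervals cover counting error only.

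Members and lists were chosen with earlier results of these data known. Named are the 8 members, Gli1, in each list described up to 4 genes of smallest adjusted p and 2 of highest level, and the 3 genes most alike to each member; some genes that this rule names are not reported here. Other list genes that passed, list members at 0 and Olig3 were named after their values were seen. Alternatives were DESeq2 1.42.0, edgeR restricted to the groups compared, scaling by the size factors of DESeq2, no filter, blocking on the replicate number, adjusting for sample label numbers under 10, limma 3.58.1 with library weights, each library left out, and, added after seeing the data, library totals without scaling and list counts without Gli1Het cuprizone replicate 2.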

Additional observations from a re-analysis of the deposited data

How the results depend on the processing

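In Gli1Null NSCs the number of members called between the diets was 2. It was 4 with DESeq2 (7.82% of all genes called), 6 with edgeR on the groups compared (25.0%), 4 with a term for sample label numbers under 10 (6.38%) and 6 with limma's library weights (26.3%). Leaving out each library in turn gave 0 to 3. In Gli1Het NSCs the number was 3, and it was 5 with DESeq2 (37.6% of all genes) and 5 with limma's weights (56.8%), 2 with edgeR on the groups compared (5.90% of all genes, against 34.0%), and 3 to 4 without each library. Between the cuprizone groups it was 0, and it was 1 with DESeq2 (9.67%), 2 with limma's weights (37.9%) and 0 to 1 without each library. In the interaction it was 0, and it was 2 with limma's weights (15.5%) and 0 to 1 without each library. It was 0 between the control groups in all 20 alternatives. DESeq2 size factors, no filter and library totals changed none of these counts, and scaling moved the median of all genes by less than 0.1 (log2). The causes were not tested.

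With the replicate block 2 members were called in Gli1Null and 3 in Gli1Het NSCs, and 0 between the genotypes and in the interaction, as without it, while the count over all genes between the diets in Gli1Null NSCs moved to 400 from 638. Same-numbered samples of different groups share only a number: the correlations of their deviations from the group means were not all above 0.1, so the numbers were not taken to pair them.

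Signs turned only for fold changes that had not passed. With the term for label numbers these were Pdgfra (0.34), Cspg4 (0.32) and Gpr17 (-0.041) between the cuprizone groups and Olig2 (0.057), Nkx2-2 (0.16) and Pdgfra (0.67) between the control groups. That term sets only Gli1Het libraries apart, so it is largely tied to genotype in these contrasts. With limma's weights they were Nkx2-2 (-0.11), Pdgfra (0.45) and Sox8 (-0.11) between the cuprizone groups, Olig1 (-0.11) and Cspg4 (-0.0086) between the control groups and Pdgfra (1.04) in the interaction. Over the fits without each library, the log2 fold change between the Gli1Het diets ranged from -0.19 to 0.39 for Sox8 and from 0.96 to 3.12 for Gpr17, and between the Gli1Null diets from 2.29 to 4.40 for Gpr17. Between the cuprizone groups it ranged from -1.03 to 0.53 for Pdgfra, from -0.078 to 0.50 for Sox8 and from -0.017 to 1.55 for Gpr17. Between the control groups it ranged from -0.17 to 0.26 for Olig1, from -0.24 to 0.0035 for Olig2, from -0.41 to 0.082 for Nkx2-2, from -0.19 to 0.32 for Cspg4, from -0.18 to 0.13 for Sox8 and from -1.89 to 0.78 for Gpr17. In the interaction it ranged from -0.84 to 0.039 for Sox10, from -0.69 to 0.87 for Pdgfra, from -0.064 to 0.52 for Sox8 and from -0.36 to 2.30 for Gpr17. The difference of the log2 ratio of Cspg4 to Pdgfra between the cuprizone groups ranged from -0.55 to 0.41. Gpr17, Sox10 and Pdgfra are limited by depth, with 19 to 432 counts per group.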
